A study of Homo sapiens with 8 samples.

Results

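The transcripts described are those of the caspase-8 pathway and of the inhibitor of apoptosis (IAP) genes: FADD, CASP8, CFLAR, RIPK1, CASP8AP2, XIAP, BIRC2 and BIRC3. Members were all array probe sets whose only gene symbol in the platform annotation was one of these 8 genes. The rule found 31 of 45284 probe sets with 1 symbol, for 6 genes of 18244. RIPK1 and BIRC3 had no such probe set and were not analysed here. Messenger RNA of SK-MEL-5 cells, an established melanoma line of human origin, was hybridised to 8 Affymetrix arrays, 2 in each of 4 groups. THZ1, which blocks the transcriptional kinase CDK7 covalently, was given at 250 nM with 25 uM DMSO for 6 h, and its control group received 25 uM DMSO, for a time the labels do not give. A second pair of groups was transfected with an siRNA against MITF, the melanocyte lineage transcription factor (siMITF), or with a non-targeting siRNA (siCtrl), with no harvest time in the labels. All 4 groups were the same line grown in DMEM with serum and carried no other stated treatment. Nothing in the labels ties the 2 replicates of a group to separate cultures, and p-values then speak only for the spread between these arrays.

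Death receptors of the TNF family recruit the adaptor FADD, which in turn recruits the initiator protease caspase-8 through shared death effector domains. Caspase-8 then cleaves effector caspases and the BCL2 family protein BID. CFLAR (c-FLIP) is a catalytically inactive relative of caspase-8 that competes for FADD and sets the threshold for activation. RIPK1 is a scaffold kinase that leads either to survival signalling or to cell death. XIAP directly inhibits caspases, whereas BIRC2 and BIRC3 (cIAP1 and cIAP2) are ubiquitin ligases that modify RIPK1 and hold back the assembly of the caspase-8 complex. CASP8AP2 (FLASH) was named for its binding to caspase-8 and is now known chiefly for its part in the 3' end processing of replication-dependent histone mRNAs. CFLAR and CASP8 are neighbours on chromosome 2, with only CASP10 between them among protein-coding genes, and BIRC3 and BIRC2 are adjacent on chromosome 11.

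The promoters of the 2 members with the largest falls after THZ1, FADD and CASP8AP2, are shown beside that of BIRC2, which did not pass the test with the drug. They are the 250 bases before the annotated gene start, from RefSeq (GRCh38.p14), each on the plus strand, at chr11:70203046-70203295 for FADD, chr6:89829630-89829879 for CASP8AP2 and chr11:102346964-102347213 for the first of the 2 BIRC2 starts. Capitals mark every match to 8 motifs searched on both strands, and no matches overlap in these windows.
FADD: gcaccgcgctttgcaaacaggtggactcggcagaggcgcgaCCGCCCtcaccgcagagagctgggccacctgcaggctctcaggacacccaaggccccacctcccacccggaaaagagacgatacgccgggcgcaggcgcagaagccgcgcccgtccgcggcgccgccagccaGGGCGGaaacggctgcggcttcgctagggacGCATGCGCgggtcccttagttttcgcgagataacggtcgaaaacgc
CASP8AP2: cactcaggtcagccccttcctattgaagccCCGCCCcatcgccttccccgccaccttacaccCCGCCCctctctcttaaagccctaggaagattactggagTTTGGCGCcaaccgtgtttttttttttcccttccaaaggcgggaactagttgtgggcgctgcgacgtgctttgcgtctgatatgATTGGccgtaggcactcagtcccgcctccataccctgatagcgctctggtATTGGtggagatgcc
BIRC2: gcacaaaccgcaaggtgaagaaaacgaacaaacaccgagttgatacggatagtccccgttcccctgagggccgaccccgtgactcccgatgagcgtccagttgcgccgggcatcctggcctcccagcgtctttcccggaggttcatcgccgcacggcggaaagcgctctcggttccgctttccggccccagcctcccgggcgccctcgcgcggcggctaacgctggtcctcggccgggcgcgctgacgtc
The motifs were the TATA box (TATAAA), the CCAAT box, the GC box (GGGCGG), the E-box (CACGTG), the core of the M-box (CATGTG), an E2F-type motif (TTTNGCGC), the core of NRF1 sites (GCATGCGC) and the ETS core (CCGGAAG). They were chosen after some of the sequences had been seen. The FADD window held the GC box on both strands, a match found in 42.6% of 35116 promoter windows, and the NRF1 core, found in 2.63% of windows. The CASP8AP2 window held the GC box, the CCAAT box (32.0% of windows) and the E2F-type motif, found in 1.51%. The BIRC2 window shown held no match to any of the 8, and the window of the second BIRC2 start held the GC box, 134 bases before that start. The E-box, which MITF can bind, was in 0 of the 18 windows of the 8 genes and in 6.35% of all windows, and the M-box core was in 3 of the 18 and in 9.42% of all. Of the same 18 windows, the GC box was in 11, the CCAAT box in 3, and the NRF1 core and the E2F-type motif in 1 each. A match is a description of the letters and not a binding site, and no link between a motif and a change was tested. GC content was 68.8% in the FADD window, 56.8% in that of CASP8AP2 and 67.6% in that of BIRC2.

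Signals are in the deposited unit, which the series' design text gives as normalized to cell number, so changes on it are called per cell. Most genes shifted together between the arrays of a group. Over 49495 probe sets the arrays had median signals of 51.1 and 67.6 with THZ1, 61.3 and 76.1 with DMSO, 40.1 and 32.5 with siMITF, and 51.1 and 59.3 with siCtrl. Changes are therefore also given after centring, in which the typical (median) deviation of 11946 tested genes was removed from each array, so that a centred change is one beyond that of the median gene. The median gene had a per-cell log2 change of -0.16 with THZ1 and -0.63 with siMITF. The spike-in probe sets had median signals of 48.0 to 53.9 on the drug arrays and 27.6 to 30.7 on the siRNA arrays, which looked separately scaled, so levels are compared only within a pair of groups. A gene is represented by its brightest probe set, and log2 changes and folds are on the log2(signal + 16) scale. The added 16 brings a fold nearer to 1 than the ratio of the signals, most for dim signals such as those of CASP8AP2 with THZ1. A gene passed the test at a limma adjusted p under 0.05 over all tested genes. MITF itself, the siRNA target, had 1747 and 1168 with siMITF against 3436 and 3936 with siCtrl (2.56-fold lower per cell, adjusted p = 1.62e-06). After centring it was 1.65-fold lower (log2 change -0.72, adjusted p = 3.25e-04). The melanocyte lineage markers SOX10, MLANA, PMEL, TYR, TYRP1 and S100B all passed the signal filter of 39.2, DCT was not analysed here, and 4 of 5 keratinocyte, 3 of 6 fibroblast and 4 of 5 leukocyte markers with a probe set lay under it. The summed fibroblast marker signal, most of it LUM, was 2658 to 3449 with THZ1 against 2370 to 2843 with DMSO, and 746 to 979 with siMITF against 1539 to 1873 with siCtrl. After centring, the 3 fibroblast markers tested, DCN (0.51), LUM (0.42) and PDGFRA (0.25), were called higher with THZ1, and with siMITF LUM was lower (-0.43) while DCN (0.20) and PDGFRA (0.39) were higher. The summed leukocyte signal was 235 to 283 with THZ1 against 238 to 278 with DMSO, and 139 to 169 with siMITF against 215 to 269 with siCtrl. All arrays came from the same cultured line, and any part of other cell types in the results below was not tested.

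With THZ1, 5 of the 6 measured genes fell on both scales and 0 rose: CASP8AP2, FADD, XIAP, CFLAR and CASP8. Among all genes tested, 10% were called lower per cell (0.0753% higher) and 21.1% after centring (17.7% higher). The median change of the 6 genes was -0.90 per cell, beside -0.16 over all tested genes, and -0.70 after centring, beside 0.04. CASP8AP2 and FADD had the most negative changes, CASP8, CFLAR and XIAP lay between, and BIRC2 did not pass. Differences between genes were not tested. Fewer cells carrying a transcript and less RNA per cell cannot be told apart in such bulk samples.

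**Figure D1:**
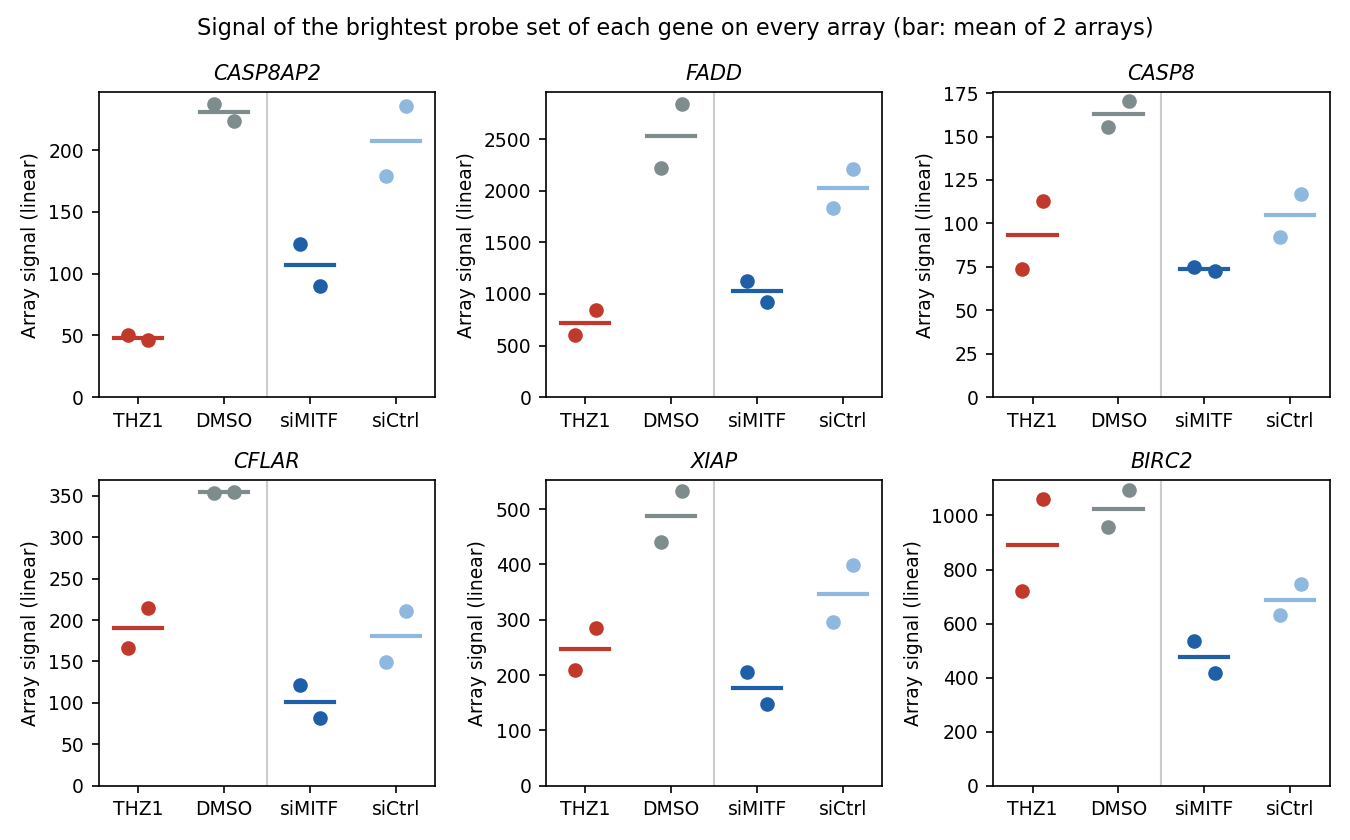
Array signal (linear scale from 0) of the brightest probe set of each of the 6 measured genes, with 1 point per array and a bar at the mean of 2 arrays for THZ1, DMSO, siMITF and siCtrl. The THZ1 points lie below the DMSO points for every gene but BIRC2, whose THZ1 points of 719 and 1061 overlap the DMSO points of 956 and 1095.

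FADD, the adaptor that couples death receptors to caspase-8, had a signal of 602 and 843 on the THZ1 arrays against 2217 and 2844 on the DMSO arrays (probe set 11716800_at). Both THZ1 arrays lay far below both DMSO arrays. The log2 change was -1.79 per cell (SE 0.25, n = 2 per group, limma adjusted p = 2.64e-10), which is 3.47-fold lower, and -1.59 after centring (SE 0.07, adjusted p = 1.80e-06). In the order of per-cell changes from the most negative, FADD stood at position 12 of 11946 tested genes.

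CASP8AP2 was measured by 1 probe set (11756721_a_at), with a signal of 49.95 and 46.2 with THZ1 against 237 and 224 with DMSO. The groups were well apart, and the THZ1 signals were close to the filter at 39.2. CASP8AP2 was 3.85-fold lower per cell (log2 change -1.94, SE 0.25, adjusted p = 4.58e-12) and 3.35-fold lower after centring (log2 change -1.74, SE 0.16, adjusted p = 3.21e-05). Its per-cell fall stood at position 6 of 11946.

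CASP8, the initiator protease, had 74.0 and 113 with THZ1 against 156 and 171 with DMSO. The groups did not overlap, as for 30% of all tested genes, whose THZ1 signals both lay below both DMSO signals. The log2 change was -0.73 per cell (SE 0.25, adjusted p = 0.0321) and -0.53 after centring (SE 0.10, adjusted p = 0.00241). Its probe set is of the _x_at design, in which some probes can detect other sequences. The per-cell call was lost with the 4 drug arrays alone (adjusted p = 0.0771) and with ERCC rescaling (adjusted p = 0.112). As the mean of its 8 probe sets, CASP8 had -0.22 after centring and did not pass (adjusted p = 0.0573).

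CFLAR, the caspase-8 inhibitor, had 166 and 215 with THZ1 against 354 and 355 with DMSO, so the DMSO arrays were nearly equal and both THZ1 arrays lower. It was 1.81-fold lower per cell (log2 change -0.85, SE 0.25, adjusted p = 0.00866) and 1.57-fold lower after centring (log2 change -0.65, SE 0.12, adjusted p = 0.00194). The 95% intervals of the centred changes of the inhibitor CFLAR (-0.91 to -0.39) and of the protease CASP8 (-0.75 to -0.31) overlapped.

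XIAP, the direct caspase inhibitor, had 208 and 286 with THZ1 against 441 and 532 with DMSO, again without overlap. Its log2 change was -0.94 per cell (SE 0.25, adjusted p = 0.00284) and -0.75 after centring (SE 0.08, adjusted p = 1.15e-04). As the mean of its probe sets XIAP had -0.46 per cell and did not pass (limma adjusted p = 0.225). Its probe set 11725698_x_at, which passed the filter, had 0.21 after centring (limma adjusted p = 0.138).

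BIRC2 (cIAP1), the ubiquitin ligase, had 719 and 1061 with THZ1 against 956 and 1095 with DMSO, groups that overlap. Its change of -0.22 per cell (95% interval -0.70 to 0.26) and -0.02 after centring (95% interval -0.20 to 0.15, adjusted p = 0.827) did not pass the test. The centred interval leaves out falls of the size seen for the other 5 genes.

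**Figure D2:**
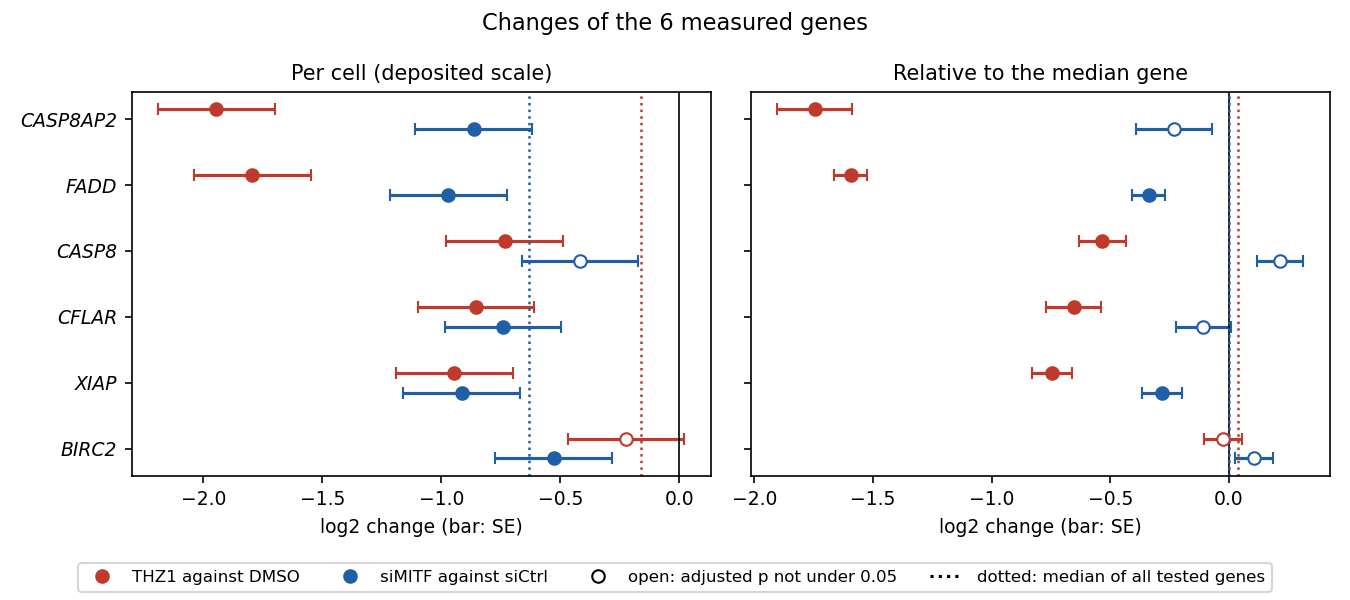
Log2 change of the 6 measured genes (points, with SE bars, n = 2 arrays per group) for THZ1 against DMSO and siMITF against siCtrl, per cell at the left and relative to the median gene (centred) at the right. Filled points passed the test, open points did not, and dotted lines mark the median of all tested genes, -0.16 and -0.63 per cell. With THZ1 the centred changes run from -1.74 (CASP8AP2) to -0.02 (BIRC2), and with siMITF from -0.34 (FADD) to 0.22 (CASP8).

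As limits, every gene shared 1 SE per cell, so small p-values overstate the evidence there, and with each gene's own variance 0 of the 6 genes passed per cell (limma, lowest adjusted p over all genes 0.268, with 5 of the 6 at an unadjusted p under 0.05), while 5 of 6 passed after centring. Per cell, 2 of 6 passed as the mean of their probe sets, 2 without THZ1 replicate 1, 3 without DMSO replicate 1 and 2 without DMSO replicate 2; FADD and CASP8AP2 passed in each of these, and all 5 genes passed after centring without any 1 array.

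With siMITF, 5 of 6 genes fell per cell (FADD, XIAP, CASP8AP2, CFLAR and BIRC2) and 0 rose, in a comparison in which 63.4% of all tested genes were called lower and 0.326% higher. Of these, FADD and XIAP fell beyond the median gene by the test, so that 2 were lower and 0 higher after centring, beside 24.7% of all tested genes called lower and 19.5% called higher. The median of the 6 genes was -0.80 per cell, beside -0.63 over all tested genes, and -0.17 after centring, beside 0.00140.

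FADD had 1122 and 926 with siMITF against 1836 and 2206 with siCtrl, with both siMITF arrays below both siCtrl arrays. It was 1.96-fold lower per cell (log2 change -0.97, SE 0.25, adjusted p = 4.86e-04) and 1.26-fold lower after centring (log2 change -0.34, SE 0.07, adjusted p = 0.00351). With quantile normalization that centred change was -0.17 (adjusted p = 0.0512). XIAP had 205 and 148 with siMITF against 296 and 398 with siCtrl, also without overlap. Its log2 change was -0.91 per cell (adjusted p = 9.61e-04) and -0.28 after centring (SE 0.08, adjusted p = 0.0202). The centred XIAP call was lost with quantile normalization (-0.08), with the mean of its probe sets (-0.15), with own variances (adjusted p = 0.0659), without siMITF replicate 2 (-0.21) and without siCtrl replicate 2 (-0.20).

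CASP8AP2 had 124 and 89.8 with siMITF against 179 and 236 with siCtrl, and CFLAR had 122 and 81.6 with siMITF against 149 and 211 with siCtrl. Both pairs of groups were apart, as for 89% of all tested genes, whose siMITF signals both lay below both siCtrl signals. Per cell they had log2 changes of -0.86 (adjusted p = 0.00175) and -0.74 (adjusted p = 0.00682), and after centring -0.23 (adjusted p = 0.260) and -0.11 (adjusted p = 0.473), which did not pass. Without the signal filter CASP8AP2 was called lower (-0.41, adjusted p = 0.0302).

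BIRC2 had 534 and 415 with siMITF against 631 and 745 with siCtrl. Its per-cell change of -0.53 was at the edge of the test (adjusted p = 0.0498, and 0.0648 with a pseudocount of 1), and its centred change was 0.11 (adjusted p = 0.305). CASP8 had 75.0 and 72.8 with siMITF against 92.3 and 117 with siCtrl, and its log2 change was -0.42 per cell (adjusted p = 0.115) and 0.22 after centring (95% interval -0.00430 to 0.44, adjusted p = 0.102). Both siMITF signals lay below both siCtrl signals for each gene, and neither gene passed after centring. With quantile normalization BIRC2 was called higher (0.40, adjusted p = 0.00273), and as the mean of its probe sets CASP8 was (0.24, adjusted p = 0.0320).

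Centred changes with siMITF moved with signal. In 5 bins of the tested genes by mean signal, from the dimmest to the brightest, the median centred change was 0.21, 0.09, -0.04, -0.18 and -0.21, and it was 0.46 over the 18114 probe sets below the filter. FADD (-0.34) and BIRC2 (0.11) belong to the brightest bin, XIAP (-0.28) to bin 4, CFLAR (-0.11) and CASP8AP2 (-0.23) to bin 3 and CASP8 (0.22) to bin 2. The part of signal in these centred changes was not tested. With THZ1 the same medians lay between -0.07 and 0.17. As a limit of the per-cell counts, 1 of 6 genes passed without siMITF replicate 2 and 0 without siCtrl replicate 2, and with each gene's own variance 0 passed (limma, lowest adjusted p over all genes 0.0893, with 3 of the 6 at an unadjusted p under 0.05).

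The changes with THZ1 and with siMITF were compared directly, as the THZ1 change minus the siMITF change. After centring, 5 of 6 genes changed more negatively with THZ1, beside 20.2% of all tested genes called in that direction. The difference was -1.51 for CASP8AP2 (SE 0.22, adjusted p = 6.28e-04), -1.26 for FADD (SE 0.10, adjusted p = 2.45e-05) and -0.75 for CASP8 (SE 0.14, adjusted p = 0.00212). It was -0.55 for CFLAR (SE 0.16, adjusted p = 0.0229) and -0.46 for XIAP (SE 0.12, adjusted p = 0.0102). For BIRC2 it was -0.13 (95% interval -0.38 to 0.12, adjusted p = 0.390). Per cell, where the median gene itself differed by 0.44, CASP8AP2 alone of the 6 passed (-1.08, SE 0.35, adjusted p = 0.0282), beside 0.946% of all tested genes called in that direction, and FADD had -0.82 (adjusted p = 0.0931). CASP8 had -0.32 (limma adjusted p = 0.527), CFLAR -0.11 (0.829), XIAP -0.03 (0.954) and BIRC2 0.30 (0.545) per cell. The CASP8AP2 difference per cell was lost (0 of 6) without THZ1 replicate 2, without DMSO replicate 1 and without each of the 4 siRNA arrays in turn. After centring, CFLAR was lost without replicate 1 of DMSO, siMITF or siCtrl or without THZ1 replicate 2 (-0.52 to -0.40), and with own variances (adjusted p = 0.136). As the mean of its probe sets XIAP had -0.14 (adjusted p = 0.313), without the signal filter XIAP and CFLAR were lost and 3 of the 6 differences passed, and with quantile normalization BIRC2 passed too (-0.50, adjusted p = 0.00490).

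The probe sets of a gene share its RNA and are not replicates, but they show how far a change depends on the probe set taken. Their positions in the transcripts were not available, and why probe sets of a gene differ was not tested. Of the 31 probe sets, 25 passed the filter: 3 for FADD, 1 for CASP8AP2, 4 of 8 for CASP8, 8 of 9 for CFLAR, 4 of 5 for XIAP and 5 for BIRC2. With THZ1, 19 of the 25 were lower and 0 higher after centring, against 16.9% and 18.4% of all 27170 probe sets tested in the same way. Per cell 10 of the 25 were lower, against 7.19%. With siMITF, 19 of the 25 were lower per cell, against 65.1%, and after centring 5 were lower and 3 higher, against 25% and 18.5%.

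The 3 FADD probe sets gave -1.59, -1.68 and -0.92 after centring with THZ1, and each passed. The last, 11760883_at, was the dimmest, with 38.4 and 43.8 with THZ1 against 108 and 107 with DMSO. With siMITF they gave -0.34, -0.71 and -0.37, each of which passed. FADD was thus lower on all 3 of its probe sets in both comparisons.

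All 8 CFLAR probe sets past the filter were lower with THZ1, by -0.65 to -0.26 on the centred log2 scale. With siMITF they split: 11753152_x_at was lower (-0.29, adjusted p = 0.0270), 11754126_x_at was higher (0.40, adjusted p = 0.00740) and the other 6 did not pass. The second of these carried only 41.3 and 35.3 with siMITF against 40.5 and 55.5 with siCtrl, groups that overlap in deposited signal. No direction after centring therefore held over the CFLAR probe sets after siMITF.

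The 4 CASP8 probe sets past the filter were lower with THZ1, by -0.66 to -0.27 after centring. With siMITF 2 of them were higher (0.30 and 0.26) and 0 lower. The 4 CASP8 probe sets below the filter had -0.20 to 0.29 with THZ1 and 0.26 to 0.53 with siMITF, after centring and without a test.

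XIAP differed between its probe sets, of which 3 were lower with THZ1 after centring (-0.75, -0.48 and -0.43). The other one past the filter, 11725698_x_at, had 61.1 and 77.1 with THZ1 against 66.3 and 69.5 with DMSO, and its centred change of 0.21 did not pass (adjusted p = 0.138). The probe set below the filter had 0.16. With siMITF only the brightest XIAP probe set was lower after centring (-0.28, adjusted p = 0.0227). The other 3 past the filter had -0.08, -0.00419 and -0.00728 and did not pass, and the probe set below the filter had 0.05. The mean of the 5 XIAP probe sets passed after centring but not per cell, where it was -0.46 (adjusted p = 0.225). The 5 BIRC2 probe sets were alike, between -0.05 and -0.01 with THZ1 and between 0.04 and 0.11 with siMITF, and 0 passed after centring.

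**Figure D3:**
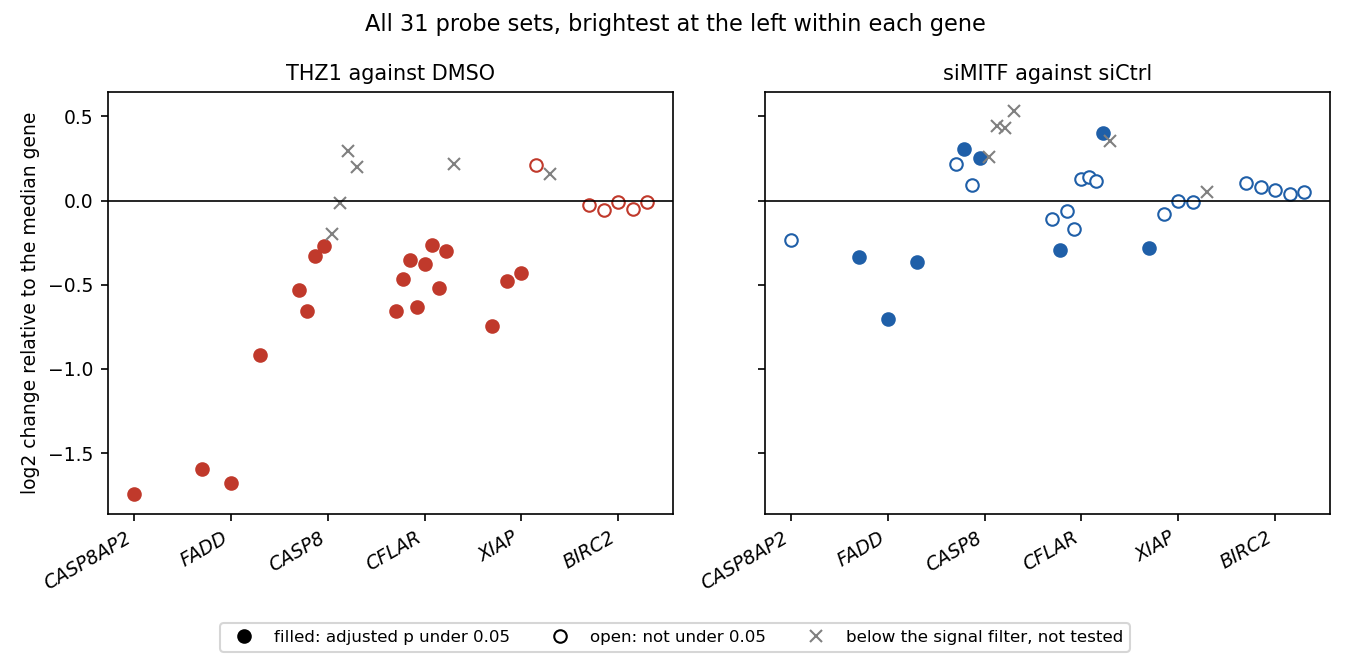
Log2 change relative to the median gene (centred) for all 31 probe sets, by gene and with the brightest at the left, for THZ1 against DMSO and siMITF against siCtrl. Filled points passed the test over all tested probe sets, open points did not and crosses lay below the signal filter. With THZ1 the FADD and CASP8AP2 probe sets lie lowest, from -1.74 to -0.92, and the 5 BIRC2 probe sets lie near 0.

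Other genes of the pathway were taken from 6 lists of 69 genes, of which 60 had a probe set and 45 were tested. Their counts after centring stand beside 21.1% of all tested genes called lower and 17.7% higher with THZ1, and 24.7% lower and 19.5% higher with siMITF. As above, the median centred change with siMITF ran from 0.21 in the dimmest bin of tested genes to -0.21 in the brightest. The part of signal in the siMITF calls of these lists was not tested. Of 14 death ligands and receptors 13 had a probe set and 4, all receptors, were tested, while the ligands TNFSF10, FASLG, TNF and TNFSF15 lay under the filter. With THZ1, TNFRSF1A, the main TNF receptor, had 224 and 315 against 486 and 643 with DMSO, without overlap, and its centred change was -0.83 (adjusted p = 2.87e-05). TNFRSF10B, a TRAIL receptor, was lower by the brightest probe set (-0.40, adjusted p = 0.00308), though not by the mean of its probe sets. FAS (-0.23, adjusted p = 0.118) and TNFRSF21 (-0.09, adjusted p = 0.362) did not pass. With siMITF all 4 tested receptors were higher after centring: TNFRSF21 (0.70), TNFRSF1A (0.33), FAS (0.29) and TNFRSF10B (0.23, but -0.01 as the mean of its probe sets). Without the signal filter TNFRSF1A (0.15), FAS (0.11) and TNFRSF10B (0.04) did not pass. The FAS call was also lost with a pseudocount of 1, own variances and quantile normalization (0.15). That of TNFRSF10B was also lost with own variances and a replicate block. Per cell 0 of the 4 passed with siMITF (lowest limma adjusted p 0.124), where the median gene had -0.63. Their per-cell changes were 0.07 for TNFRSF21, -0.30 for TNFRSF1A, -0.34 for FAS and -0.41 for TNFRSF10B. The last 3 were thus higher only relative to the median gene.

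Among 15 tested adaptors and ubiquitin enzymes of the TNF receptor complexes, 3 were lower and 3 higher with THZ1 after centring. TRAF3, an adaptor that works with BIRC2 in restraining noncanonical NF-kB signalling, had 266 and 382 with THZ1 against 551 and 694 with DMSO (-0.72, adjusted p = 1.28e-04, not passing as the mean of its probe sets). TAB1, a partner of the kinase TAK1, had -0.34 (adjusted p = 0.0162), and the deubiquitinases USP2 and CYLD had 0.45 (adjusted p = 0.0251) and 0.23 (adjusted p = 0.0372). USP2 had 53.9 and 81.1 with THZ1 against 38.4 and 72.2 with DMSO, groups that overlap in deposited signal. The TAB1, USP2 and CYLD calls were lost with own variances, and those of USP2 and CYLD also without the signal filter. That of CYLD was lost too with a replicate block and with the 4 drug arrays alone. With siMITF 2 were lower, TNFAIP3 (A20), a ubiquitin editor induced by NF-kB, with -0.70 (adjusted p = 2.43e-04), and TRAF3 with -0.27 (adjusted p = 0.0241). The TRAF3 call was lost with quantile normalization (-0.066), the mean of probe sets (-0.18), a pseudocount of 1 and own variances.

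Of 8 tested caspases and apoptosome genes, 3 were lower and 1 higher with THZ1 after centring: the initiators CASP9 (-0.39) and CASP2 (-0.37), DFFA, the inhibitor of the apoptotic nuclease (-0.31), and cytochrome c gene CYCS (0.30). The CYCS call was lost with quantile normalization (0.03, limma adjusted p = 0.726) and without the signal filter (0.25, adjusted p = 0.159). CASP10 lay under the filter. With siMITF CASP9 was lower, with 264 and 205 against 523 and 670 with siCtrl (centred log2 change -0.66, adjusted p = 1.39e-04). BID, the substrate of caspase-8, had -0.25 (adjusted p = 0.0153, but -0.07 and no call with quantile normalization), and CASP2 had -0.23 but 0.04 with quantile normalization.

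Of 2 tested necroptosis genes, MLKL, the executioner, passed in neither comparison (0.15 with THZ1 and -0.01 with siMITF after centring), and PGAM5 was lower with siMITF (-0.45, adjusted p = 0.00293). RIPK3, the kinase that activates MLKL, lay under the filter.

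Of 6 tested IAP genes and antagonists outside the members, 1 was lower with THZ1 after centring, HTRA2, a mitochondrial protease that antagonises IAPs (-0.65, adjusted p = 4.46e-04). With siMITF 1 was lower, BIRC5 (survivin), a chromosomal passenger protein expressed in dividing cells, with 660 and 524 against 1690 and 1991 with siCtrl (-0.98, adjusted p = 2.15e-05). BIRC7 (livin), the IAP known from melanoma, had 352 and 454 with THZ1 against 297 and 495 with DMSO, groups that overlap. It had 78.1 and 62.4 with siMITF against 133 and 147 with siCtrl, where its log2 change was -0.86 per cell (adjusted p = 0.00185) and -0.23 after centring (adjusted p = 0.140).

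Of 10 tested genes that act with CASP8AP2 in histone gene transcription and 3' end processing, 4 were lower and 0 higher with THZ1 after centring. NPAT, the histone gene coactivator, had 93.5 and 122 with THZ1 against 219 and 297 with DMSO (-0.95, adjusted p = 1.92e-05), and it was the 1 gene of this list that also passed per cell (-1.15). SLBP, the histone stem-loop binding protein, had -0.35, and the cleavage factors CPSF3 and CPSF2 had -0.34 and -0.27. The CPSF2 call was lost without the signal filter (-0.32, limma adjusted p = 0.0812). With siMITF 4 were lower and 1 higher: SLBP (-0.59), CPSF3 (-0.25, but 0.03 with quantile normalization), LSM10 of the U7 particle (-0.21, but 0.07 with quantile normalization), CSTF2 (-0.24) and SYMPK (0.24). The SYMPK call was lost without the signal filter (0.06), with the mean of its probe sets (0.12) and with own variances. Those of CPSF3 and LSM10 were also lost with a pseudocount of 1, and that of LSM10 with a replicate block and with the 4 siRNA arrays alone. CSTF2 was chosen after its value was seen and its call was not tried under alternatives. Calls that also passed with any 1 array left out were, with THZ1, those of TNFRSF1A, TNFRSF10B, TRAF3, CASP9, CASP2, HTRA2, NPAT, CPSF3 and SLBP, and with siMITF those of TNFRSF21, TNFRSF1A, TNFAIP3, CASP9, PGAM5, BIRC5 and SLBP, and each other pathway call tried was lost without at least 1 array. As the mean of their probe sets TRAF3 (-0.14), TAB1 (-0.11), CYLD (0.03), DFFA (-0.13) and CYCS (0.10) did not pass with THZ1. The histone list medians after centring were -0.12 with THZ1 and -0.20 with siMITF, beside 0.04 and 0.00140 over all tested genes. The medians of the receptors were -0.31 with THZ1 and 0.31 with siMITF, those of the adaptors -0.10 and -0.02, those of the caspase list -0.16 and -0.03, those of the necroptosis pair 0.00837 and -0.23, and those of the other IAP genes 0.03 and -0.05. Per cell, TNFRSF1A, TRAF3, HTRA2 and NPAT were the 4 pathway genes lower with THZ1. With siMITF, where 63.4% of all tested genes were lower per cell, the per-cell counts of lower genes were 0 of 4 receptors, 10 of 15 adaptors, 7 of 8 caspase genes, 2 of 2 necroptosis genes, 4 of 6 IAP genes and 9 of 10 histone genes.

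**Figure D4:**
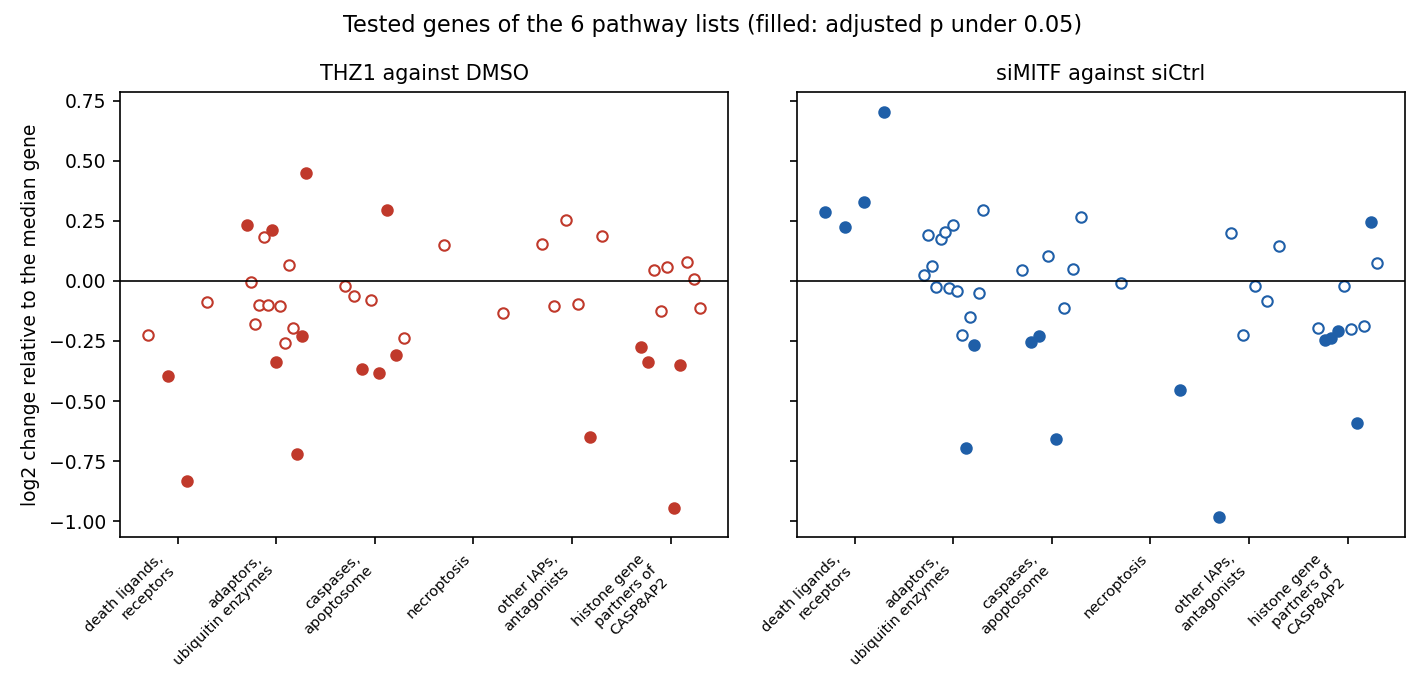
Log2 change relative to the median gene (centred) of the 45 tested genes in 6 pathway lists, in alphabetical order within each list, for THZ1 against DMSO and siMITF against siCtrl. Filled points passed the test. The lowest points are NPAT (-0.95) with THZ1 and BIRC5 (-0.98) with siMITF, and the 4 receptors lie above 0 with siMITF.

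The profile of each called member over the 8 arrays was compared with those of all other tested genes, as Pearson's r of log2 deviations from the mean of the 4 arrays of its own pair of groups, after centring. These values rank genes over 4 groups of 2 arrays that share their offsets, and many genes reach a high r. The deviations hold the same differences between groups as the tests above, so r gives no separate support for the calls. It also ignores the size of a change: NCAPD2 had -0.14 with THZ1 after centring, and CASP8, which it is most like, -0.53. FADD was most like ESCO1 (r = 0.997), PPAN (0.997) and DUS4L (0.996), and CASP8AP2 most like GEMIN2 (0.998), PLAGL2 (0.994) and INTS9 (0.993). XIAP was most like GTF2H1 (0.999), HMGXB4 (0.997) and RIC8A (0.997), CFLAR like MTF2 (0.988), NR3C1 (0.987) and STAMBPL1 (0.984), and CASP8 like NCAPD2 (0.988), SVIL (0.981) and ZNF875 (0.980). Among the members themselves r ran from 0.90 to 0.97 for the pairs among XIAP, CFLAR, FADD and CASP8AP2, from 0.65 to 0.78 for CASP8 with these 4, and from -0.02 to 0.41 for BIRC2 with the other 5.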

How the data were processed

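The deposited unit is array intensity (linear signal), 1 value per probe set and array. The submitters' processing notes name MAS5 (no version), and the design text states a normalization to cell number without its calculation. Its steps and the genome build are not given in the sources used here. Per the labels' protocols, ERCC spike-in RNA was scaled to the number of cells. Symbols came from the platform annotation, updated through gene IDs (GRCh38.p14 gene table). Signals were analysed as log2(signal + 16). A gene's brightest probe set with 1 symbol represented it, and was tested if its mean was at or above the 40th percentile of such probe sets (a signal of 39.2).

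All 8 arrays entered 1 model with a mean for each group (limma 3.58.1, R 4.3.3, empirical Bayes variances, Benjamini-Hochberg adjustment). Variance shrinkage was complete per cell (infinite prior degrees of freedom) and had 5.97 prior beside 4 residual degrees of freedom after centring, which subtracts from each array the median, over tested genes, of the deviation from the gene's mean. A separate fit covered the 27170 probe sets past the filter. The method, tested on simulated data for THZ1 against DMSO after centring (11946 genes), recovered 93% of log2 changes of 1 and 69% of those of 0.5, with 5 false calls. The changes were planted in a small share of genes, as many up as down, with independent noise and no shift shared by an array. The simulation therefore cannot test the centring of arrays in which most genes shifted together. The number of arrays limits the precision. Named pathway genes were up to 4 per list and comparison with the lowest adjusted p after centring, with BIRC7, and 3 like genes per called member, skipping symbols that begin with LOC. The members and lists were chosen with earlier results of these data known. Same-numbered arrays of paired groups were checked for shared deviations over genes (r = 0.11 for THZ1 and DMSO, -0.18 for siMITF and siCtrl), and the numbers were not used as pairs. Alternatives were a pseudocount of 1, no signal filter, the mean of a gene's probe sets, own variances, a replicate block, each pair of groups alone, quantile normalization, ERCC rescaling and each array left out.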

Additional observations from a re-analysis of the deposited data

Results flagged for a closer look

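The change with THZ1 and the change with siMITF differed for 5 of the 6 measured genes, by the test of the difference itself (limma, after centring on the median gene, n = 2 arrays per group), beside 20.2% of all tested genes called in the same, more negative direction. The THZ1 change minus the siMITF change was -1.51 for CASP8AP2, -1.26 for FADD, -0.75 for CASP8, -0.55 for CFLAR and -0.46 for XIAP, on the log2 scale. Per cell only that of CASP8AP2 passed among these 5. Those of FADD (-0.82), CASP8 (-0.32), CFLAR (-0.11) and XIAP (-0.03) did not, where the median gene differed by 0.44. After centring, the XIAP and CFLAR differences were lost without the signal filter. That of XIAP was also lost as the mean of its probe sets, and that of CFLAR with own variances. The groups of 2 arrays are too small for a check for outlying samples.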

How the results depend on the processing

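With THZ1, 5 of the 6 genes were called after centring, and 5 passed without the signal filter, with a pseudocount of 1, own variances, a replicate block, the 4 drug arrays alone, quantile normalization or any 1 array left out (lowest and highest 5), and 4 with the mean of probe sets. Per cell the count fell to 2 with the mean of probe sets and 0 with own variances, was 4 (CASP8 lost) with the 4 drug arrays alone and with ERCC rescaling, and was 2 to 5 with 1 array left out. All genes called per cell (1208) numbered 0 with own variances, 696 with ERCC rescaling (each array shifted to the mean ERCC median of its set) and 250 to 2102 with 1 array left out. After centring (4632) they numbered 2567 without the filter, which adds dim genes to the test, and 3170 to 4570 with 1 array left out. BIRC2 with THZ1 ranged from -0.50 to 0.051 per cell and from -0.10 to 0.050 after centring with 1 array left out, without a stable sign.

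With siMITF, per-cell counts were 0 with own variances (6 genes and all genes), and 0 to 5 and 1771 to 8551 with 1 array left out. After centring the count of 2 became 1 with own variances (FADD) and 1 with quantile normalization, where FADD and XIAP were lost and BIRC2 was called higher, and 1 to 3 with 1 array left out (3252 to 5334 over all genes). The centred change of BIRC2 was -0.077 without the filter and -0.012 with the mean of probe sets. That of TNFRSF10B was -0.012 with the mean of probe sets, and with quantile normalization CASP2 had 0.039, CPSF3 0.031 and LSM10 0.071.

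For the difference of the changes per cell, own variances gave 0 of 6 genes and 0 of all genes, and ERCC rescaling 0 and 93. A replicate block gave 2 of 6 genes and 2350 of all genes. With 1 array left out the counts were 0 to 1 and 82 to 3923. XIAP had 0.24 and CFLAR 0.00435 with the mean of probe sets, and with 1 array left out they ranged from -0.25 to 0.18 and from -0.36 to 0.13. After centring 3 of 6 genes passed without the filter, where BIRC2 had 0.00235, and 4 to 5 (3901 to 4721 over all genes) with 1 array left out. The cause of these shifts was not tested.

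Replicate numbers are shared across groups, but nothing in the labels says that they pair the arrays. The replicate block, without crossing, left the 2 treatment counts among the 6 genes at 5 and 5 per cell, and 5 and 2 after centring. Since the deviations of same-numbered siRNA arrays had a weak negative correlation over genes (r = -0.18), a replicate block with the siRNA numbers crossed was added after seeing the data. This crossed block matches the brighter siMITF array with the brighter siCtrl array. The match was picked from these same arrays, so the counts cannot show that any arrays were paired. The crossed block gave, per cell, 6 of 6 genes with siMITF, and 2 of 6 and 8217 of all genes for the difference.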
